A study of Mus musculus with 2 samples.

Results

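Cholesterol and fatty acid metabolism was followed here through 8 genes across the cell types of the aged mouse hippocampus: Srebf1, Srebf2 and Insig1, Scd1 and Scd2, and Apoe, Abca1 and Abcg1. They were taken by name from 9 tables, 1 for each cell type in the authors' annotation, which together list 10596 genes. Of the 72 possible pairs of a gene with a table, 41 were listed. Each gene that a table lists had a detection of 10% or more of nuclei in 1 or both libraries, and lay 0.05 or more from 0 on the log2 fold change scale. An unlisted gene may therefore have been either seldom detected or nearly level, and the tables do not say which of these applies.

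The study compared 2 libraries of single-nucleus RNA sequencing, in which nuclei are captured in droplets and transcript 3′ ends are counted. Male C57BL/6J mice were injected intraperitoneally once a day for 10 days from the age of 10 weeks, with pyridostigmine bromide at 0.7 mg/kg and permethrin at 200 mg/kg, or with vehicle. Pyridostigmine bromide inhibits cholinesterases and permethrin is a pyrethroid insecticide, and together they model exposure in Gulf War Illness (GWI). At 19 months of age hippocampal tissue was taken, and 3 animals of each group were combined into a single library, 1 for GWI and 1 for control. The genotype label reads C57/BL6 for the control library and C57/BL7 for the GWI library. With 1 library per group there is no spread between replicates, so no difference below was tested, and a difference between the exposed and control mice cannot be told apart from a difference between these 2 pools. The labels state a minimum of 25000 reads per nucleus, but numbers of nuclei were not used here, so no interval is given for any percentage.

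Cholesterol does not cross the blood-brain barrier, and the brain makes its own. When sterol is scarce, the factor encoded by Srebf2 is released from the endoplasmic reticulum and switches on the enzymes of cholesterol synthesis, while the Srebf1 product mainly drives fatty acid synthesis. Insig1 encodes the protein that holds both factors back when sterol is plentiful, and it is itself one of their targets. Astrocytes load cholesterol onto apolipoprotein E, the product of Apoe, through the transporters encoded by Abca1 and Abcg1, which are switched on by the sterol-sensing receptor LXR. Oligodendrocytes need large amounts of cholesterol and monounsaturated fatty acid for myelin, and Scd1 and Scd2 encode desaturases that make the latter.

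RefSeq promoter sequence for build GRCm38.p6 was at hand for 5 of the 8 genes. Those of 4 are shown because they hold matches to patterns bound by SREBP or LXR factors or by factors that act beside them. Each line gives the 250 bases before a RefSeq start site, 5′ to 3′ on the strand of the gene, with every match to 4 patterns in capitals.
Insig1, chr5:28071162-28071411, plus strand: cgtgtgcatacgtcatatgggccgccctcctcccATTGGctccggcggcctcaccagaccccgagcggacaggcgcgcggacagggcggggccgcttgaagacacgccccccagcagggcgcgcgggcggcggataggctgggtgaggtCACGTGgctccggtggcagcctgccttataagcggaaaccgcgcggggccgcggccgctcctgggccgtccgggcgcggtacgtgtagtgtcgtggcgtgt
Srebf2, chr15:82147019-82147268, plus strand: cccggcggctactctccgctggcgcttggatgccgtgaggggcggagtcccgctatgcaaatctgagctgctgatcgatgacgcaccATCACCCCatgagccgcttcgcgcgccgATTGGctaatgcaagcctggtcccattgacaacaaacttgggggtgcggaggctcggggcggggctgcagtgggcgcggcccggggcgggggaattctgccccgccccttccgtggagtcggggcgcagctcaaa
Srebf1, chr11:60210472-60210721, minus strand: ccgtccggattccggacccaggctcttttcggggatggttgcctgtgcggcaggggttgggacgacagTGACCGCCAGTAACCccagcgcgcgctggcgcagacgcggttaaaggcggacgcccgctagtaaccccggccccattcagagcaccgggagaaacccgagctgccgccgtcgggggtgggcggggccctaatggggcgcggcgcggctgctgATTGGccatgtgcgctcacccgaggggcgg
Abca1, chr4:53159896-53160145, minus strand: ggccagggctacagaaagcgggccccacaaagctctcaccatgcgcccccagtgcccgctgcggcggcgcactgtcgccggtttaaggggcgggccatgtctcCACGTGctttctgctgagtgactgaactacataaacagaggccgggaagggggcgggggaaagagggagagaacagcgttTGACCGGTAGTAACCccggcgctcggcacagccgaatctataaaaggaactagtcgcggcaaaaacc
The patterns, chosen with these sequences in view and searched on both strands, were ATCACCCC from the sterol regulatory element, ATTGG bound by NF-Y, the E-box CACGTG, and TGACCNNNNNTAACC, a form of the direct repeat bound by LXR. No match overlapped another in these windows. Over 32851 promoter windows of the same length, ATCACCCC was found in 0.654%, ATTGG in 33.8%, CACGTG in 6.02% and TGACCNNNNNTAACC in 0.0457%. The LXR-type repeat was found in the windows of Abca1 and of 1 of the 3 Srebf1 start sites, and ATCACCCC in that of Srebf2. A match is only a description of these letters. Counts of transcript 3′ ends do not show which start site was used.

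Set side by side, the authors' deposited tables put most of these genes higher in the GWI library. Below 0 were Srebf2 in 7 of the 8 tables that listed it, Abca1 in microglia and endothelial cells, and Abcg1 in microglia and the Other nuclei. Of the 41 listed pairs, 30 had a log2 fold change above 0 and 11 below it, and 28 were above the median of their table. Of the pairs of all genes, 50.0% were above 0. Srebf1 in OPCs and astrocytes and Scd1 in oligodendrocytes reached the listing minimum of 10% in the GWI library alone. Their detection was thus bound to be higher in GWI, and their values above 0 carry little weight in these counts. Detection was higher in the GWI library for 31 of the 41, against 61.3% of the pairs of all genes. That share differed between tables, from 42.1% in endothelial cells and 45.2% in pericytes, through 50.5% in inhibitory neurons, 53.2% in oligodendrocytes, 64.3% in OPCs, 66.9% in the Other nuclei and 67.4% in astrocytes and in microglia, to 80.0% in excitatory neurons. Each detection gap below is to be read beside the share of its table. The tables share both libraries, so they are not separate observations of the exposure. A log2 fold change of 0.5 or more in either direction was seen for 4 pairs, where 13.6% of the pairs of all genes were as far out, and one of 1 or more for 0, against 3.75%. The 4 pairs were Abca1 in oligodendrocyte precursor cells (OPCs, the progenitors of myelinating cells), Scd1 in oligodendrocytes, and Scd2 in endothelial cells and pericytes. As many as 46.3% of all endothelial and 52.4% of all pericyte genes were as far from 0, against 16.3% in OPCs and 3.26% in oligodendrocytes.

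**Figure D1:**
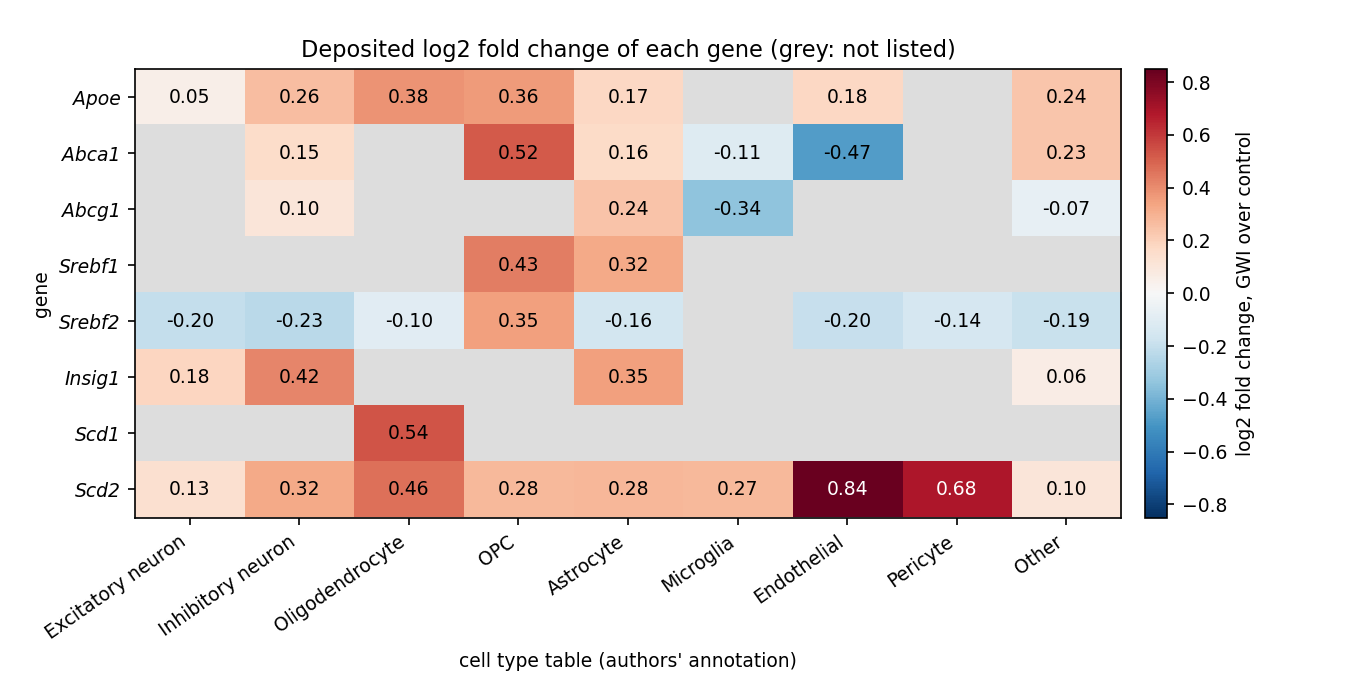
Deposited log2 fold change of the GWI over the control library for each of the 8 genes (rows) in each of the 9 cell type tables (columns), with the value printed in the cell and grey where the gene was not listed. The row of Scd2 holds values from 0.10 to 0.84, and the row of Srebf2 is below 0 except for 0.35 in OPCs.

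Read by cell type, and among tables with at least 3 listed members, the members' medians stood farthest above those of all genes in oligodendrocytes, OPCs and astrocytes. In OPCs all 5 listed members were above 0, where 50.7% of all genes were, and their median log2 fold change was 0.36 against 0.05 for the whole table. In astrocytes 6 of 7 were above 0, against 48.6% of genes, with a median of 0.24 against -0.06. In oligodendrocytes 3 of 4 were above 0, against 44.5%, with a median of 0.42 against -0.07. The counts and medians of these tables include Srebf1 or Scd1, listed through the GWI library alone. With a detection minimum of 25%, which leaves both genes out, the medians were 0.36 in OPCs, 0.17 in astrocytes and 0.42 in oligodendrocytes. Neurons had smaller medians. In inhibitory neurons 5 of 6 members were above 0, against 50.6% of genes, with a median of 0.21, and in excitatory neurons 3 of 4, against 52.3%, with a median of 0.09 that became -0.0346 with a detection minimum of 25% and -0.17 after subtracting each gene's median in the other tables. In microglia 1 of 3 was above 0, against 46.8%, with a median of -0.11 against -0.06 for all genes, which became 0.0833 with that minimum. Pericytes had 1 of 2 above 0, against 47.2%, endothelial cells 2 of 4, against 48.4%, and the nuclei annotated Other 4 of 6, against 53.1%. In the last pair the medians changed sign as well, from -0.01 to 0.51 in endothelial cells and from 0.08 to -0.0041 in the Other nuclei with the same minimum.

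Markers of other cell types differed between the libraries in the tables with the highest medians. In OPCs 5 of 6 excitatory neuron markers were listed, 3 of them lower, with detected percentages summing to 123.6 in GWI against 134.4 in control nuclei. Camk2a, a gene of excitatory neurons, was at -0.55 there, with 30.6% against 41.6%. Of 3 inhibitory neuron markers listed in OPCs 2 were lower, with Gad2 at -0.88 and Gad1 at 0.06. Of 2 listed oligodendrocyte markers 1 was lower, Mbp at -0.51, and 1 higher, St18 at 0.42. In oligodendrocytes 3 of 6 excitatory markers were listed, 2 of them lower, summing to 82.4 against 88.3, with Camk2a at -0.49, or 21.4% against 27.0%. In astrocytes all 4 listed were lower, summing to 197.5 against 200.7. Their part in the members' values was not tested.

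The authors' cell type names were set beside marker genes. Each named table listed markers of its own type, from 3 of 6 in endothelial cells to 7 of 7 in pericytes. A marker was listed if it passed the limits on detection and log2 fold change, so its listing alone does not establish a name. In the Other table, 5 of 6 excitatory neuron markers were listed, with Camk2a detected in 100% of nuclei of both libraries and Slc17a7 in 89.5% of GWI and 89.3% of control nuclei. Markers of other cell types were also detected. Slc1a2, an astrocyte glutamate transporter gene that neurons also transcribe weakly, was detected in 22.0% of GWI and 26.8% of control oligodendrocyte nuclei. In astrocytes the listed excitatory neuron markers were detected in 77.5% against 80.0% (Grin2b), 62.2% against 63.4% (Camk2a), 47.8% against 47.9% (Slc17a7) and 10.0% against 9.4% (Neurod6). The listed astrocyte markers there were at 69.2% against 68.7% (Gpc5), 61.7% against 58.7% (Slc1a3), 41.9% against 34.9% (Gja1), 23.1% against 17.2% (Aqp4) and 16.7% against 13.9% (Aldoc). Among endothelial nuclei 6 of 7 pericyte markers were listed and all were lower in the GWI library, their detected percentages summing to 123.3 against 187.4.

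Srebf2, the gene of the factor for cholesterol synthesis, was lower in the GWI library in every table that listed it except that of OPCs. Its deposited log2 fold change was -0.20 in excitatory neurons, -0.23 in inhibitory neurons, -0.16 in astrocytes, -0.10 in oligodendrocytes, -0.20 in endothelial cells, -0.14 in pericytes and -0.19 in the Other nuclei. In OPCs it was 0.35, and detection was 19.8% of GWI against 13.9% of control nuclei. In several tables the share of nuclei that held the transcript differed little. Detection was 51.1% in GWI against 51.5% in control excitatory neurons and 17.6% in both libraries for oligodendrocytes. In astrocytes it was 47.7% against 47.5%, so that the 2 measures pointed opposite ways there. Inhibitory neurons showed a wider gap, 34.6% against 38.4%. Across cell types of the control library, detection ran from 65.1% in the Other nuclei and 51.5% in excitatory neurons down to 14.3% in pericytes and 13.9% in OPCs, the last pair lying closer together than the libraries did. Detection also depends on depth per nucleus, which can differ between cell types. Srebf2 lies on chromosome 15 from 82147181 to 82205379 on the plus strand of GRCm38.

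Srebf1, the gene of the lipogenic factor, was listed in OPCs and astrocytes alone. In OPCs it was detected in 10.5% of GWI and 7.1% of control nuclei, with a log2 fold change of 0.43. In astrocytes the percentages were 11.2% and 8.2% and the value 0.32. Both stand near the listing minimum, where few nuclei carry the gene, and both reached it in the GWI library alone. Srebf1 (chromosome 11, 60199089 to 60222581, minus strand) overlaps Rai1 on the opposite strand, and whether reads were counted by strand is not stated in the labels or headers. Rai1 was lower in the same tables, at -0.49 and -0.23.

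Insig1, the brake on both factors, was higher wherever it was listed. The deposited log2 fold change was 0.42 in inhibitory neurons, where 16.5% of GWI against 12.4% of control nuclei held it. Astrocytes had 0.35, with 20.8% against 16.3%, and excitatory neurons 0.18, with 16.6% against 13.8%. In the Other nuclei the value was 0.06, so close to the median of that table that it lay below 0 once centred on it. In the astrocyte table and in both neuron tables, Insig1 was above 0 and Srebf2 below it. Insig1 was not listed in oligodendrocytes, OPCs, microglia, endothelial cells or pericytes. It lies on chromosome 5 from 28071363 to 28078662.

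Scd2, the main desaturase gene of the brain, was the one member listed in all 9 tables, and each value was above 0. Oligodendrocytes had the highest detection, 84.9% of GWI against 75.0% of control nuclei, with a deposited log2 fold change of 0.46 that ranked 50 of 2053 genes. OPCs showed the widest gap in detection, 61.9% against 47.5%, at a log2 fold change of 0.28. Astrocytes, inhibitory neurons and excitatory neurons stood closer together. Their log2 fold changes were 0.28, 0.32 and 0.13, with detection of 61.1% against 54.1%, 51.4% against 45.8% and 55.8% against 49.6%. Microglia had 0.27, with 25.5% against 20.4%. The Other nuclei had 0.10, with 70.2% against 69.1%. Endothelial cells had 0.84, at 34.0% against 26.3%, and pericytes 0.68, at 20.5% against 15.9%. In the order of control detection, excitatory neurons, OPCs and inhibitory neurons (49.6%, 47.5% and 45.8%) lay closer together than the libraries did within OPCs.

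Oligodendrocyte markers were set beside the Scd2 values, since its detection was highest in these cells. Of 7 oligodendrocyte markers, 2 were listed in pericytes, both higher, with detected percentages summing to 33.3 in GWI against 27.0 in control nuclei. The myelin gene Mbp was at 0.64 in pericytes, -0.12 in microglia, -0.17 in astrocytes and -0.25 in inhibitory neurons. In endothelial cells 3 of 7 were listed, all lower, summing to 30.1 against 48.3, while Scd2 was higher. In microglia 4 of 7 were listed and 1 was higher, summing to 73.5 against 69.3. The part of oligodendrocyte RNA in the Scd2 values was not tested.

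Scd1, the second desaturase gene, was listed in oligodendrocytes alone. It was detected in 10.4% of GWI and 7.4% of control nuclei, and its deposited log2 fold change of 0.54 ranked 30 of 2053. Scd1 reached the listing minimum in the GWI library alone, so it was listed there only because its detection was higher in GWI. Scd1 and Scd2 are paralogs on chromosome 19, at 44394455 to 44407879 and 44293674 to 44306864. How reads that match both were counted is likewise not stated, so the division of counts between them is uncertain.

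**Figure D2:**
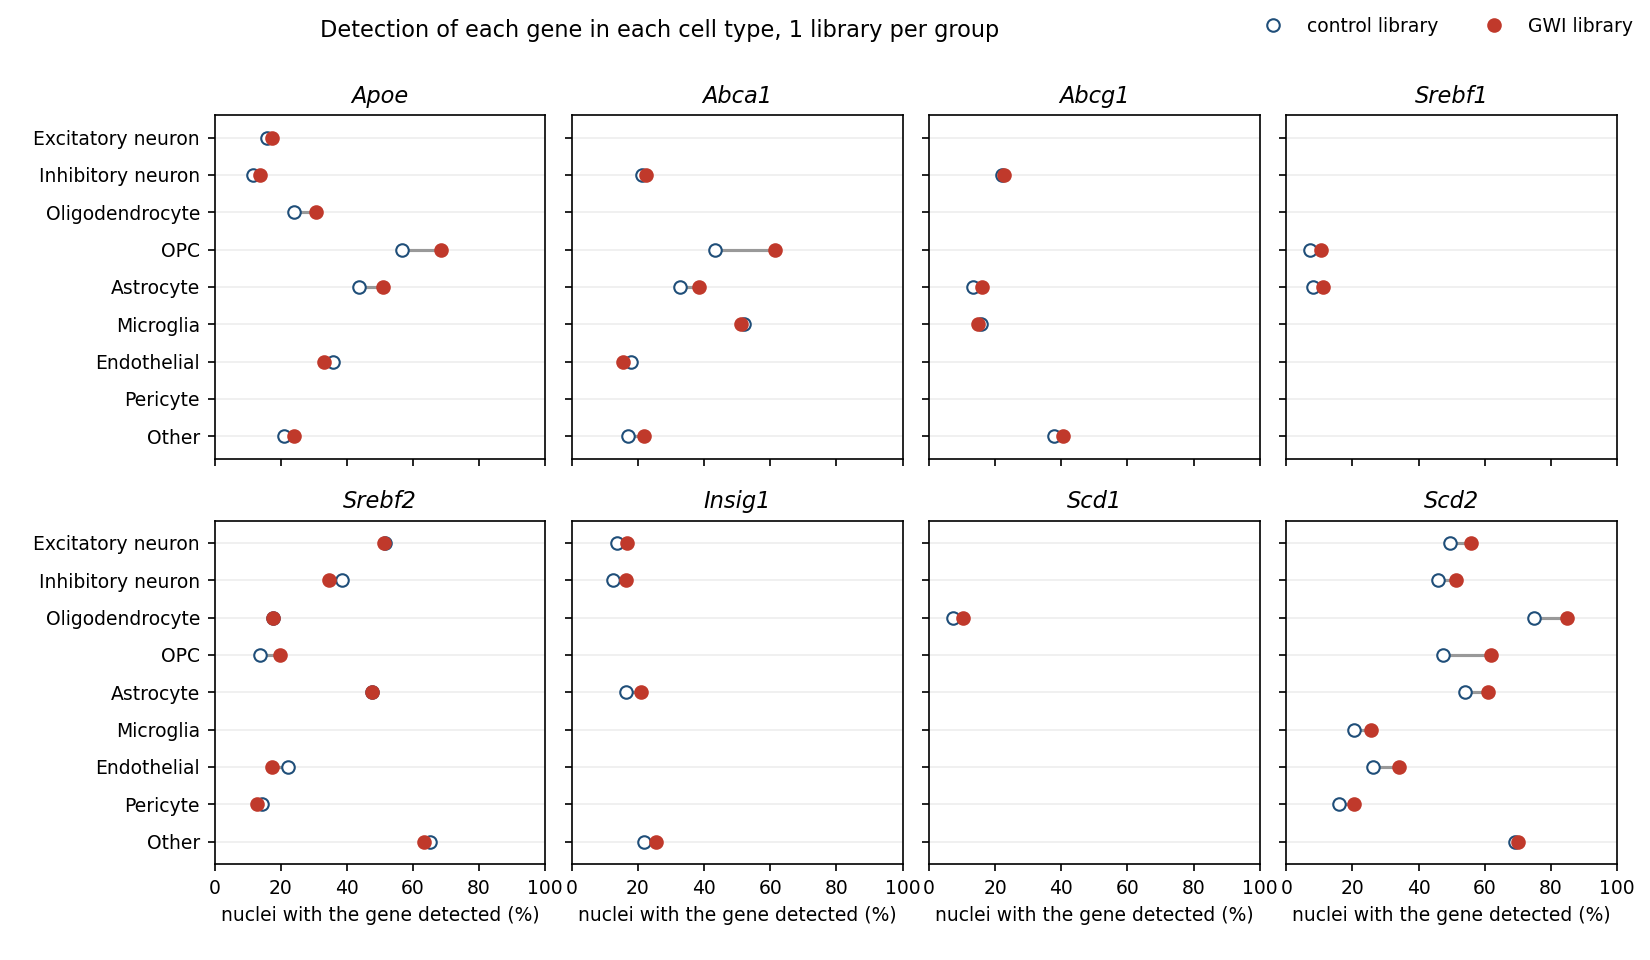
Percentage of nuclei in which each gene was detected (x axis, 0 to 100%) in each cell type table (y axis), 1 panel per gene, with open circles for the control library, filled circles for the GWI library and no point where the gene was not listed. The widest gaps are those of OPCs, for Abca1 (61.4% against 43.3%) and Scd2 (61.9% against 47.5%).

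Apoe had a log2 fold change above 0 in all tables that listed it, with the largest values in cells of the oligodendrocyte lineage. The deposited log2 fold change was 0.38 in oligodendrocytes, with detection in 30.8% of GWI against 23.9% of control nuclei, and 0.36 in OPCs, with 68.6% against 56.7%. In astrocytes, the main source of apolipoprotein E in the healthy brain, the value was 0.17, with 50.8% against 43.6%. In endothelial cells the 2 measures went apart, with a log2 fold change of 0.18 but detection in 33.0% against 35.8%. The Other nuclei had 0.24, inhibitory neurons 0.26 and excitatory neurons 0.05, the last lying below 0 once centred on the median of its table, 0.06. Excitatory neurons, which are not a main source of this transcript, still held it in 17.3% of GWI and 15.9% of control nuclei. The part of free RNA in the neuronal values was not tested. Apoe was not listed in microglia or pericytes.

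Astrocyte markers were set beside the Apoe values. In oligodendrocytes 2 of 7 were listed and both were lower, their percentages summing to 31.4 in GWI against 37.4 in control nuclei, while Apoe was higher. In OPCs 3 of 7 were listed and all 3 were higher, summing to 138.6 against 130.7, with Aqp4 at 1.21, Slc1a3 at 0.11 and Slc1a2 at 0.08. Aqp4, at 10.2% against 5.0%, reached the listing minimum there in the GWI library alone, so its value carries little weight. In inhibitory neurons 3 of 7 were listed and 1 was higher, summing to 111.1 against 114.7. The Other nuclei listed 2 of 7, both higher, summing to 94.5 against 87.9, and excitatory neurons 2 of 7, 1 of them higher, summing to 125.6 against 120.9. Endothelial cells listed 1, which was lower, at 43.7% against 47.4%. The part of astrocyte RNA in the Apoe values was not tested. The gene spans 19696109 to 19699188 of chromosome 7, on the minus strand.

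Abca1, which encodes the transporter that starts the lipid loading of apolipoprotein E, had its highest value in OPCs. There it was detected in 61.4% of GWI against 43.3% of control nuclei, a gap of 18.1 percentage points, and its deposited log2 fold change was 0.52. Astrocytes had 0.16, with 38.6% against 32.8%, inhibitory neurons 0.15, with 22.6% against 21.2%, and the Other nuclei 0.23, with 21.7% against 17.1%. In microglia the log2 fold change was -0.11, with 51.3% against 52.1%. Control detection in microglia and OPCs differed by 8.8 percentage points, less than the libraries did within OPCs, and OPCs were the higher of the pair in the GWI library. Endothelial cells had -0.47, with 15.5% against 17.9%, a value farther from 0 than in microglia but inside the wide spread of that table, where it lay above 24.6% of genes. Abca1 lies on chromosome 4 from 53030787 to 53159895.

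Abcg1, which encodes the exporter that adds further cholesterol to the particle, was also split between astrocytes and microglia. The deposited log2 fold change was 0.24 in astrocytes, with detection in 16.0% of GWI against 13.4% of control nuclei. In microglia it was -0.34, with 14.7% against 15.7%, lower than all but 8.60% of the genes of that table. Inhibitory neurons were at 0.10 and the Other nuclei at -0.07, though detection in the latter was 40.6% against 37.7%. Abcg1 lies on chromosome 17 from 31057675 to 31117988.

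In most tables shorter genes were more often above 0 than longer ones, and the members fall on both sides of that division. Apoe, Insig1, Scd1, Scd2 and Srebf1 span 3.08 to 23.5 kb, while Srebf2, Abcg1 and Abca1 span 58.2, 60.3 and 129 kb. In oligodendrocytes 76.6% of all listed genes under 30 kb were above 0, against 38.6% of longer ones, with median log2 fold changes of 0.19 and -0.09. The same shares were 64.1% and 41.5% in astrocytes, 64.6% and 46.8% in OPCs, 72.6% and 42.0% in microglia, 69.6% and 40.9% in inhibitory neurons and 67.9% and 42.6% in excitatory neurons. In endothelial cells they were 48.9% and 48.1%. The limit of 30 kb was set with the members' lengths known, and the part of gene length in the members' values was not tested.

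Against genes of their own length class, several members lay less far out than against the whole table. Scd2 in oligodendrocytes lay above 97.6% of all genes and above 88.2% of those under 30 kb. Apoe in oligodendrocytes lay above 95.6% and 80.9%. Apoe in OPCs, at 83.7%, lay above 69.5% of short genes. In inhibitory neurons, where its log2 fold change was smaller, Apoe lay above 86.3% and 74.3%. Insig1 in inhibitory neurons lay above 96.0% and 92.0%, and in astrocytes above 95.3% and 90.5%. Among genes of 30 kb or more, Abca1 in OPCs lay above 93.9%, Abcg1 in astrocytes above 92.1% and Srebf2 in OPCs above 87.1%. Srebf2 lay above 14.9% of long genes in inhibitory neurons and above 46.3% in oligodendrocytes.

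**Figure D3:**
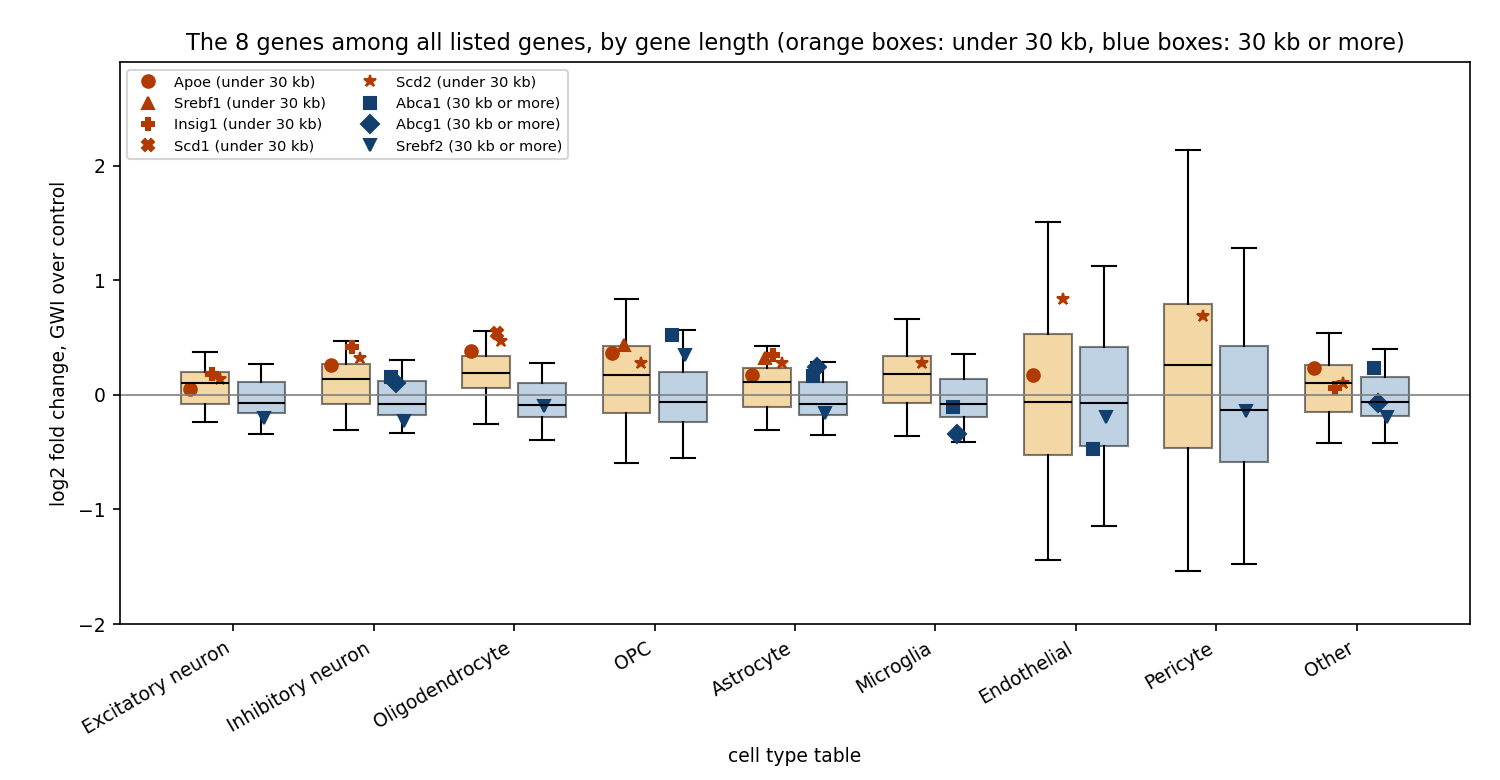
Log2 fold change (y axis) of all listed genes in each cell type table (x axis), as boxes from the 25th to the 75th percentile with the median as a line and whiskers to the 5th and 95th percentiles, orange for genes under 30 kb and blue for longer genes, with the 8 genes as symbols over the box of their length class. The orange boxes of oligodendrocytes and microglia have medians of 0.19 and 0.19 against -0.09 and -0.08 for the blue ones, and the symbols for Abca1 and Srebf2 in OPCs lie above their blue box.

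The wider lipid pathways were read through 9 lists of 156 genes, of which 121 were listed in at least 1 table. In oligodendrocytes 21 of 25 listed lipid genes were above 0, or 84.0%, against 44.5% of all genes, with a median log2 fold change of 0.19. Of those above 0, Scd1, Degs1, Cers2, Fads6, Hacd3 and Hsd17b12 reached the listing minimum of 10% in the GWI library alone. OPCs had 34 of 49, or 69.4% against 50.7%, and a median of 0.19, and astrocytes 41 of 65, or 63.1% against 48.6%, and a median of 0.11. Excitatory neurons had 37 of 64, inhibitory neurons 36 of 63, microglia 11 of 22, endothelial cells 26 of 54, pericytes 12 of 21 and the Other nuclei 46 of 91. As shares these were 57.8%, 57.1%, 50.0%, 48.1%, 57.1% and 50.5%, beside 52.3%, 50.6%, 46.8%, 48.4%, 47.2% and 53.1% of all genes. Each count of a single list below is to be read beside the share of all genes of its table. A gene under 10% in control nuclei was listed only where GWI detection was higher. The reverse holds for one under 10% in GWI nuclei.

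Enzymes of cholesterol synthesis were mostly above 0 in neurons and astrocytes, where Srebf2 was below, and in OPCs, where it was above. The lengths of these enzyme genes were not examined. Of all genes under 30 kb, 67.9% were above 0 in excitatory neurons, 69.6% in inhibitory neurons and 64.1% in astrocytes. In excitatory neurons 6 of 7 enzymes were above 0, against 52.3% of all genes, with a median log2 fold change of 0.18. Acat2, the enzyme of the entry step, was at 0.25 and Dhcr7, a late reductase, at 0.19, while the squalene synthase gene Fdft1 was at -0.08. Acat2, Dhcr7 and Hsd17b7 reached the listing minimum there in the GWI library alone. In inhibitory neurons 7 of 8 were above 0, against 50.6%, with the sterol demethylase gene Cyp51 at 0.23, the squalene epoxidase gene Sqle at 0.22 and Lss at -0.31. Astrocytes had 8 of 11 above 0, against 48.6%, with Dhcr7 at 0.30 and Sqle at 0.26. The astrocyte median was 0.08, below the 0.11 of all astrocyte genes under 30 kb, and Dhcr7 was again listed through the GWI library alone. OPCs listed 3, all above 0, where 50.7% of all genes were. There Msmo1, a sterol oxidase gene, was at 1.004, with 10.5% of GWI against 4.6% of control nuclei, and Cyp51 at 0.30, with 12.3% against 9.2%. Both reached the listing minimum of 10% in the GWI library alone, so the count in OPCs carries little weight. Oligodendrocytes and microglia listed none of these 20 genes. Endothelial cells had 2 of 5 above 0, against 48.4%, with a median of -0.89 and Hmgcs1, an early synthase gene, at -1.77. In the Other nuclei 7 of 14 were above 0, against 53.1%, with Fdps at -0.63 and Dhcr7 at 0.42.

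Among the genes that steer the SREBP factors, the proteases that release them were above 0 in astrocytes and inhibitory neurons. Mbtps1, the first of these proteases, was at 0.38 in astrocytes and 0.40 in inhibitory neurons, and Mbtps2, the second, at 0.27 and 0.31, while Mbtps2 was at -0.26 in OPCs. Scap, the gene of their escort protein, lay near 0 in neurons, at -0.05 in the excitatory and -0.09 in the inhibitory table. Ppargc1b, a coactivator gene, was at -0.32, -0.35 and -0.42 in excitatory neurons, inhibitory neurons and astrocytes. In microglia all 3 listed genes of this list were below 0, with Mbtps2 at -0.11 and Mylip at -0.09. The LXR genes Nr1h2 and Nr1h3 were listed in no table.

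The list of lipoprotein assembly and export, which holds Apoe, Abca1 and Abcg1, was mostly above 0 in neurons, oligodendrocytes, OPCs and astrocytes. All 4 listed in oligodendrocytes were above 0, including Apod, another apolipoprotein gene, at 0.30, and the myelin transporter gene Abca2 at 0.24. In astrocytes 7 of 8 were above 0, with Clu, the gene of apolipoprotein J, at 0.45 and detected in 42.8% of GWI against 32.8% of control nuclei. Inhibitory neurons had 6 of 6 above 0, and OPCs 4 of 6, with Clu at -0.18 and Abca3 at -0.32. Microglia had 2 of 4, with Apod at 0.35. Apod and Abca3, the 2 above 0 there, reached the listing minimum in the GWI library alone. Apod did so in inhibitory neurons and Apoo in OPCs. Of all genes, 44.5% were above 0 in oligodendrocytes, 48.6% in astrocytes, 50.6% in inhibitory neurons, 50.7% in OPCs and 46.8% in microglia.

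In the list of cholesterol uptake and lysosomal release, 4 of 6 genes were above 0 in microglia, against 46.8% of all genes. The count was 4 of 8 in excitatory neurons, 4 of 11 in inhibitory neurons, 2 of 6 in astrocytes and 4 of 10 in endothelial cells. It was 2 of 3 in oligodendrocytes, 3 of 5 in OPCs, 5 of 6 in pericytes and 6 of 10 in the Other nuclei. In microglia Lrp1, a receptor that takes up apolipoprotein E, was at 0.47, with 41.3% of GWI against 30.9% of control nuclei. Npc2 and Npc1, whose products carry cholesterol out of the lysosome, were at 0.42 and 0.25, and Sorl1 at -0.28. Npc1 was at 0.32 in oligodendrocytes, 0.28 in astrocytes, 0.22 in excitatory and 0.20 in inhibitory neurons. Scarb1, the gene of a lipoprotein receptor, was at -0.35 in astrocytes, -0.25 in excitatory neurons and -0.50 in inhibitory neurons. In OPCs the receptor genes differed among themselves, with Vldlr at 0.44 and Lrp8 and Sorl1 at -0.55 and -0.58.

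Fatty acid synthesis genes, a list that holds both desaturases, were all above 0 in oligodendrocytes and mostly below it in neurons. All 8 listed in oligodendrocytes were above 0, against 44.5% of all genes, with a median log2 fold change of 0.26. Of these, Scd1, Degs1, Fads6, Hacd3 and Hsd17b12 reached the listing minimum of 10% in the GWI library alone, so the count carries little weight. Besides the desaturases the 8 held Degs1, a ceramide desaturase gene, at 0.69 and the elongase gene Elovl7 at 0.34. Elovl7 was detected in 38.4% of GWI against 30.4% of control nuclei. In excitatory neurons 5 of 13 and in inhibitory neurons 5 of 12 were above 0, against 52.3% and 50.6% of all genes. Among elongase genes in excitatory neurons, Elovl5 and Elovl6 were both at -0.22, while Elovl4 was at 0.22 and Elovl7 at 0.19. In inhibitory neurons Elovl5 was at -0.14 and Elovl6 at -0.26, while Elovl4 was at 0.09 and Elovl7 at 0.13. Elovl7 reached the listing minimum in inhibitory neurons in the GWI library alone. In astrocytes 7 of 13 were above 0, with Elovl2 at 0.40 and Elovl6 at -0.26. In OPCs 6 of 12 were above 0, from Me1 at -0.46 to Hacd1 at 0.70. Elovl2 in astrocytes and Hacd1 in OPCs reached the listing minimum in the GWI library alone. In the Other nuclei 5 of 16 were above 0, and Acly, which makes the acetyl-CoA for both pathways, was at -0.67.

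**Figure D4:**
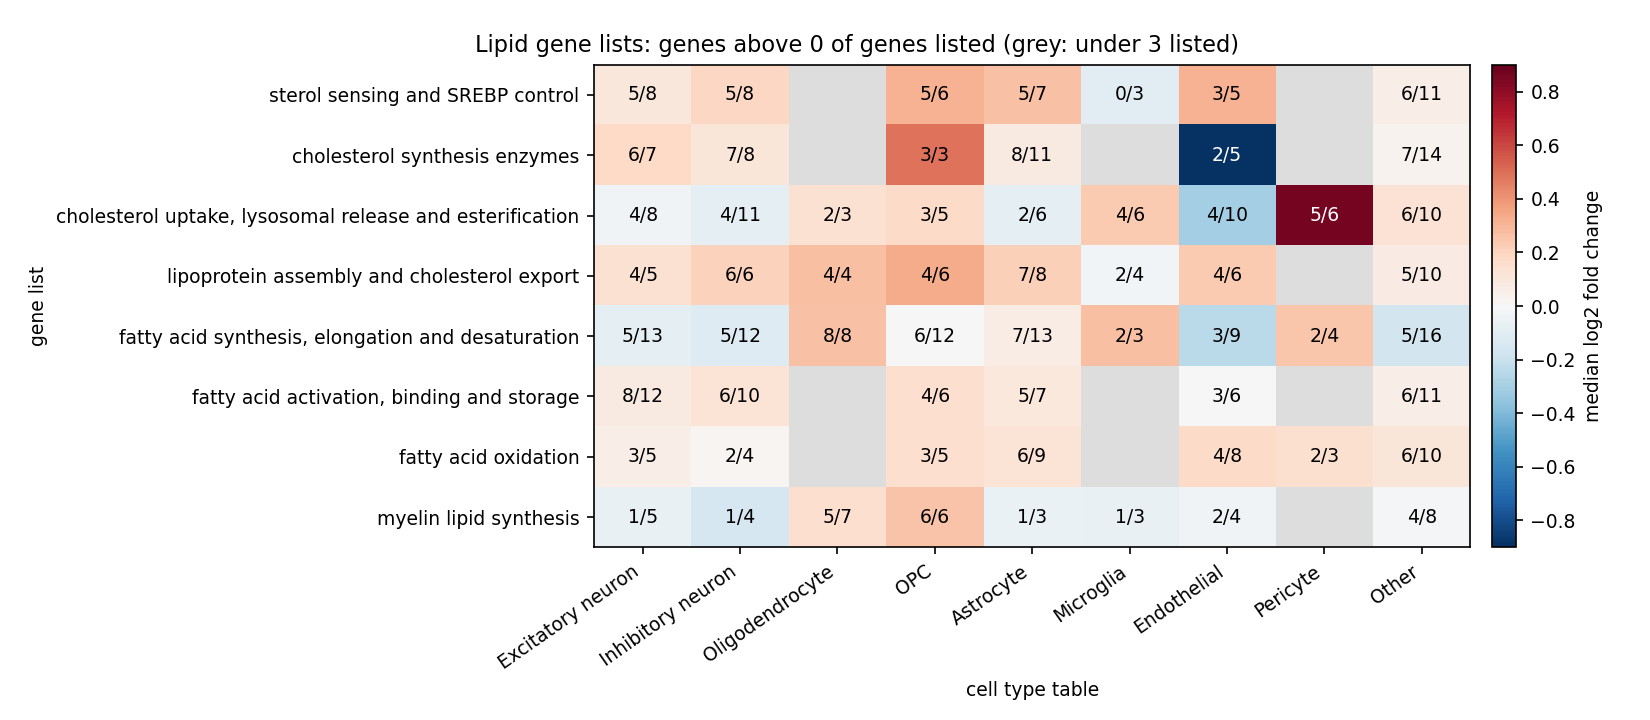
Median log2 fold change (colour) of the genes of each lipid list (rows) listed in each cell type table (columns), with the number above 0 of the number listed in the cell and grey where under 3 were listed, which includes the whole oxysterol list, not drawn. The oligodendrocyte column shows 8 of 8 for fatty acid synthesis and 4 of 4 for lipoprotein assembly, and the OPC column 6 of 6 for myelin lipid synthesis. Of the 8, Scd1, Degs1, Fads6, Hacd3 and Hsd17b12 reached the listing minimum in the GWI library alone.

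The remaining lists covered the use and storage of fatty acids and the lipids of myelin. Acsl3, which encodes an enzyme that activates long fatty acids, was at 0.61 in OPCs, 0.39 in inhibitory neurons, 0.22 in astrocytes and 0.16 in excitatory neurons. Gpam, the gene of the first enzyme of triglyceride synthesis, was at 1.04 in OPCs, with 22.3% of GWI against 11.3% of control nuclei. Of the oxidation genes, Hadha, a subunit of the mitochondrial trifunctional enzyme, was at 0.47 in astrocytes, with 24.3% against 17.4%, and the receptor gene Ppard was at -0.41 in astrocytes, -0.48 in microglia and -0.68 in inhibitory neurons. All 6 myelin lipid genes listed in OPCs were above 0, with a median of 0.26, and 5 of 7 in oligodendrocytes. There Cers2, a ceramide synthase gene, was at 0.42 and the hydroxylase gene Fa2h at -0.09. Cers2 reached the listing minimum in oligodendrocytes in the GWI library alone. Of the 5 oxysterol genes, Cyp7b1 alone was listed, at 0.10 in excitatory neurons, -0.23 in astrocytes, 0.76 in endothelial cells, 0.37 in pericytes and 0.15 in the Other nuclei.

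The detection of 4 members was compared across cell types with that of other genes, by Pearson's r over the tables that list both. For Scd2, over 9 tables, the most alike of 321 genes were Edil3 (0.93), Mapt (0.91) and Fgfr2 (0.89). Those nearest to Srebf2, over 8 tables and 409 genes, were Garem1 (0.98), Myo18a (0.98) and Efna5 (0.98). For Apoe, over 7 tables and 540 genes, they were Lrmda (0.98), Maml2 (0.85) and Cd81 (0.73). For Abca1, over 6 tables and 737 genes, they were Chd7 (0.95), Lrmda (0.90) and Rab31 (0.86). The points share both libraries and the depth of each cell type, and only genes listed in the same tables could be compared.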

How the data were processed

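Nuclei from mouse hippocampus were captured with 10x Genomics 3′ v3.1 chemistry, per the labels' protocols. Cell Ranger and GRCm38 (mm10) were used, per the submitters' processing notes, with no version given. Per the file headers, each deposited table holds a log2 fold change and, for both groups, the fraction of nuclei with the gene detected, printed here as a percent. How the authors scaled values, named cell types and treated doublets and free RNA is not stated there. The headers only number the groups. The first was read as GWI because the comparison label names it first, and PBS in that label was read as vehicle. Every direction rests on that reading. The authors' p-values treat nuclei as replicates and were not used.

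The members and lists were chosen with earlier results of these data known. Described were counts above 0, counts 0.5 or more from 0 in log2 fold change, and medians, beside those of all genes of the table. The genes named are all 8 members, from each wider list the 2 highest and 2 lowest of a table with at least 3 listed genes, and the 3 genes most alike in detection to each member listed in at least 6 tables. Values of such genes in further tables, Cyp7b1, Rai1 and the marker genes were added after their values were seen. Some genes of these lists are not reported here. Alternatives were centring on the table median, subtracting the same gene's median in the other tables, measures from detection alone, a detection minimum of 25%, the mean, a size of 1, and leaving out endothelial cells and pericytes. Positions and lengths came from GENCODE M21 (GRCm38) and promoters from RefSeq. Planted shifts in shuffled values and a planted pattern were recovered, which follows from arithmetic and does not test the steps above. Python 3.11.15, pandas 2.3.3, numpy 2.4.6 and matplotlib 3.10.9 were used.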

Additional observations from a re-analysis of the deposited data

Results flagged for a closer look

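Of the 8 genes, 3 lay on opposite sides of 0 in different cell types, with at least 0.5 between their highest and lowest deposited log2 fold change outside the endothelial and pericyte tables. None of these differences was tested, since each group is 1 library. The share of all genes that would meet the same rule was not counted, so the number flagged is not a result about these genes. In OPCs, where Abca1 and Srebf2 had their highest values, 16.3% of all genes lay 0.5 or more from 0. Abca1 was at 0.52 in OPCs and -0.11 in microglia, 0.631 apart. Abcg1 was at 0.24 in astrocytes and -0.34 in microglia, 0.582 apart. Srebf2 was at 0.35 in OPCs and -0.23 in inhibitory neurons, 0.578 apart.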

How the results depend on the processing

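No paired analysis was possible because each group is 1 library, and for the same reason no replicate could be left out. Of the 41 pairs, 28 stayed above 0 when centred on the table median and 31 had a higher detected fraction in GWI. Of the 30 pairs above 0, 15 remain with a detection minimum of 25%, which keeps 21 pairs in all. The 4 pairs past 0.5 became 2 with that minimum and 0 at a size of 1. Centring changed the sign of 2 pairs, both detection measures that of 3, and subtracting the same gene in the other tables that of 14 of 38. That subtraction moved the members' median to -0.17 (excitatory neurons), 0.0493 (inhibitory neurons), 0.17 (oligodendrocytes), 0.0212 (astrocytes), -0.27 (microglia) and -0.10 (Other). The detection minimum moved it to -0.0346 (excitatory neurons), 0.0474 (inhibitory neurons), 0.0833 (microglia), 0.51 (endothelial cells) and -0.0041 (Other). The mean gave 0.32 in oligodendrocytes and 0.0861 in endothelial cells, where centring gave 0.0587. In the wider lists the minimum leaves fewer genes, so the number above 0 went to 16 of 34 (excitatory neurons), 16 of 29 (inhibitory neurons), 10 of 11 (oligodendrocytes), 13 of 14 (OPCs), 18 of 31 (astrocytes), 2 of 4 (microglia), 6 of 11 (endothelial cells), 2 of 3 (pericytes) and 26 of 55 (Other). Other causes of these movements were not tested. Without counts of nuclei or molecules, the precision of a detected fraction near 10%, as for Srebf1 and Scd1, is unknown.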
